A study of Sus scrofa with 4 samples.

Results

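The genes described here are 10 markers by which skin fibroblasts are assigned to a dermal layer or told from neighbouring cells: THY1, FAP, DPP4, CD34, NT5E, ENG, MCAM, CD9, PDPN and RGS5. They were taken by symbol from the platform annotation, and 9 of the 10 had a probeset with that single symbol, among 6765 genes named in this way. NT5E, the surface enzyme CD73, had no such probeset and was not analysed here. Each gene was represented by its brightest probeset, with THY1 carrying 3 probesets, MCAM 2 and the others 1 each.

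The cells were fibroblasts grown from the backs of 2 Duroc pigs in a porcine model of cutaneous fibrosis. Each pig received a shallow and a deep wound, which were biopsied at 20 weeks. RNA of confluent cultures, named by the protocol as cells of the dermal cones and grown in medium with fetal bovine serum, was hybridized to a porcine expression microarray. Each depth was thus measured on 2 arrays, and no unwounded skin was among the samples. The animal model therefore rests on 2 pigs of 1 breed. With the pig as a block, p-values rest on how far the depth differences of these 2 pigs disagree, with variance shared across probesets. They do not measure the spread over a wider set of animals. The series states that shallow and deep wounds lay on the same pig. The array titles give the partner by a sample number, which was read here as the order of listing, and the arrays are called those of pig 1 and pig 2.

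The upper, papillary dermis and the deeper, reticular dermis are built by fibroblasts of different origin that keep part of their character in culture. In human or mouse skin FAP, DPP4 and PDPN have been used to enrich papillary cells and THY1 to enrich reticular cells, while MCAM and RGS5 mark pericytes around small vessels. Most of these proteins are enzymes, adhesion molecules or co-receptors at the plasma membrane, but RGS5 is an intracellular regulator of G-protein signalling and so is a marker of a cell type without being a surface protein.

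Values are MAS5 signals, an intensity on a linear scale that Affymetrix software computes from the matched and mismatched probes of a probeset. Differences are deep minus shallow on the log2 scale, so 1 is a doubling, and are given with the standard error of a limma fit with the pig as a block. A gene was called at a Benjamini-Hochberg adjusted p under 0.05 over the 14399 probesets tested. The table has no detection calls. Signals were therefore set against the highest of 6 probesets for a bacterial trp transcript that should be absent, which read 14.8 for the shallow culture of pig 1, 6.96 for that of pig 2, and 21.8 and 17.1 for their deep cultures. All 9 genes were above this level on all 4 arrays, and 8 were above the highest of a wider set of 23 absent controls, CD34 being the exception on 1 array.

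The labelled cell type was present on every array: 10 of 10 measured genes of fibroblast identity, COL1A2, DCN, LUM and VIM among them, were above the wider set of absent controls on all 4. The arrays differed in other respects. The 3' to 5' signal ratio of actin ran from 1.96 to 2.41 on the shallow arrays and from 3.28 to 6.10 on the deep arrays, and 28S ribosomal RNA from 1351 to 1836 and from 3462 to 7621. The summed signal of 10 epithelial genes was 8765 on the shallow array of pig 1 and between 248 and 375 on the others. That of 11 proliferation genes was 12388 in the shallow culture of pig 1 and 3939 in that of pig 2, against 1728 and 1914 in their deep cultures. In cultured populations, fewer cells of a type and less RNA per cell cannot be told apart.

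The comparison asks what separates cells of deep wounds from cells of shallow wounds on the same animal. THY1, a reticular marker, and FAP, a papillary marker, both read higher in deep cultures of both pigs, 3.95-fold and 2.11-fold on average. DPP4, the papillary marker most closely related to FAP, differed by 1.09-fold, with an interval from 0.711-fold to 1.66-fold. PDPN and CD9 read slightly lower in both pigs, and ENG, MCAM, CD34 and RGS5 differed more between arrays or pigs than with depth. None of the 9 genes passed the threshold in limma, where 0.340% of all probesets tested did, 0.236% higher and 0.104% lower. At an unadjusted p under 0.05, 2 of the 9 were higher, THY1 and FAP, and 0 lower, beside 6.94% and 6.92% of all probesets.

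**Figure D1:**
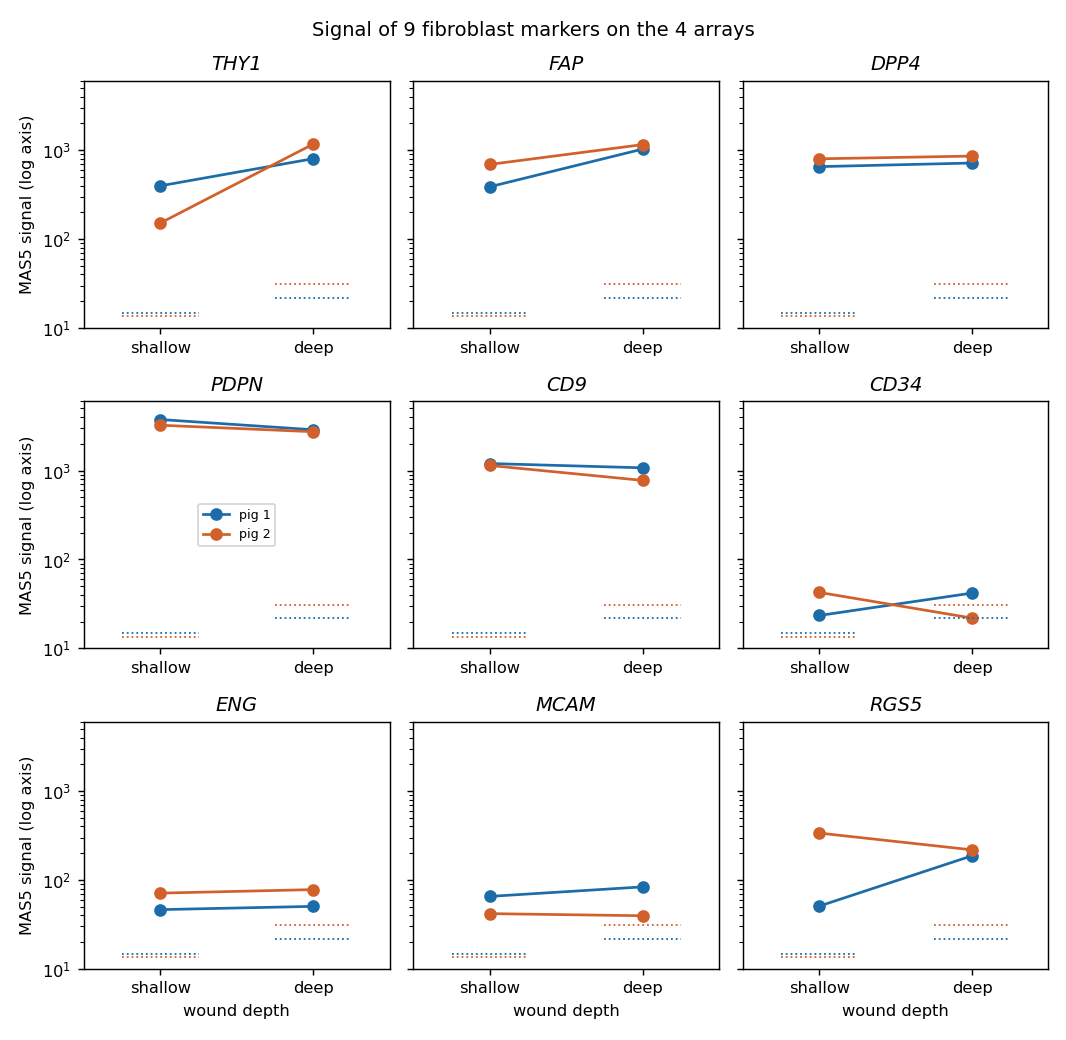
Signal of each of the 9 genes (log axis, MAS5 units) on the shallow and deep array of pig 1 (blue) and pig 2 (orange), with lines joining the arrays of a pig and dotted lines at the highest of 23 absent controls on each array. THY1 and FAP are higher on both deep arrays, DPP4 and ENG run nearly level within each pig, and CD34 lies close to the controls; heights of different genes are not comparable, since probesets differ in response.

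THY1, or CD90, is a small glycoprotein held in the membrane by a lipid anchor and is the most general marker of fibroblasts, denser in reticular than in papillary cells. The shallow cultures of pig 1 and pig 2 gave signals of 397 and 152, and the deep cultures 803 and 1172; later pairs of values follow the same order of pigs. Both deep cultures were thus above both shallow cultures, and the lowest and the highest value came from the same animal, pig 2. The means were 275 ± 174 (SD, n = 2) in shallow and 987 ± 261 (SD, n = 2) in deep. The log2 difference was 1.98 ± 0.44 (SE; limma, adjusted p = 0.104), with a 95% interval from 0.97 to 2.99, and it ranked 105 from the top among the 14399 probesets. In pig 1 the deep culture was 2.02-fold higher and in pig 2 it was 7.72-fold higher, so the pigs differed in size but not in direction.

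A second THY1 probeset, dimmer but above the absent controls on all 4 arrays, showed the same order between depths, with 58.3 and 21.5 in shallow and 89.9 and 78.2 in deep. Its difference was 1.25 ± 0.46 (limma, adjusted p = 0.281). The dimmest was below the wider set of controls on every array and was given no fold. With the shallow array of pig 1 left out THY1 differed by 2.68 (limma, adjusted p = 2.43e-05) and with that of pig 2 left out by 1.29 (limma, adjusted p = 0.00695). With 1 deep array left out it differed by 2.25 (pig 1 left out) or 1.71 (pig 2 left out; limma, adjusted p = 0.285 and 0.933). Those fits hold 3 arrays and no pig block, and they differ in how much they call overall: 172 probesets (1.19%) when the shallow culture of pig 1 was dropped and 1597 (11.1%) when that of pig 2 was dropped, against 49 with all arrays. With the deep culture of pig 1 or pig 2 dropped limma called 0, and 1803 or 727 had an unadjusted p under 0.05. With each shallow array paired to the deep array of the other pig, THY1 passed the threshold (limma, adjusted p = 0.0159), in a fit that called 202 probesets, or 1.40%.

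FAP, fibroblast activation protein, is a membrane serine protease that cuts after proline and is a marker of activated fibroblasts in healing wounds and tumour stroma. It read 388 and 692 in shallow and 1029 and 1156 in deep. The deep cultures again lay above both shallow cultures, and the deep values were closer to each other than the shallow ones. The mean was 540 ± 215 (SD, n = 2) in shallow and 1093 ± 89.6 (SD, n = 2) in deep, or 1.07 ± 0.29 on the log2 scale (SE; limma, adjusted p = 0.165) with a 95% interval from 0.40 to 1.74. The deep culture was 2.65-fold higher in pig 1 and 1.67-fold higher in pig 2. Leaving out the shallow culture of pig 1, which had the lowest FAP signal and the high epithelial and proliferation signals, gave a difference of 0.66 (limma, adjusted p = 0.501). Without that of pig 2 it was 1.49 and passed (limma, adjusted p = 0.00123), in the fit that called 11.1% of all probesets. The parts of cell composition and of the array measures in the FAP and THY1 differences were not tested.

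DPP4, or CD26, is an exopeptidase of the same family as FAP; it removes dipeptides from chemokines and peptide hormones and marks papillary lineage and adventitial fibroblasts. It read 653 and 800 in shallow and 717 and 859 in deep. Each deep culture was a little above its own pig's shallow culture, 1.10-fold in pig 1 and 1.07-fold in pig 2, while the depth groups overlapped. The difference was 0.12 ± 0.26 (limma, adjusted p = 0.885), with an interval from -0.49 to 0.73. Its values split by animal: pig 2 was above pig 1 at both depths, by 1.23-fold in shallow and 1.20-fold in deep. Set beside DPP4, the FAP difference was larger by 1.27 log2 units in pig 1 and by 0.64 in pig 2.

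Other proline-directed and dipeptide-removing peptidases from a fixed list of 13 were represented by 7 genes on the array and 6 past the filter on dim probesets. None was called, and 5 of the 6 had a positive difference, as did 46.4% of all 5272 named genes tested. The median was 0.45, beside -0.04 over all those named genes. CTSC, a lysosomal enzyme that activates serine proteases of immune cells, read 2632 and 3415 in shallow and 6906 and 7702 in deep (1.28 ± 0.28; limma, adjusted p = 0.102). PRCP, a lysosomal carboxypeptidase, differed by 0.76 ± 0.27 and the aminopeptidase XPNPEP1 by 0.56 ± 0.27.

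**Figure D2:**
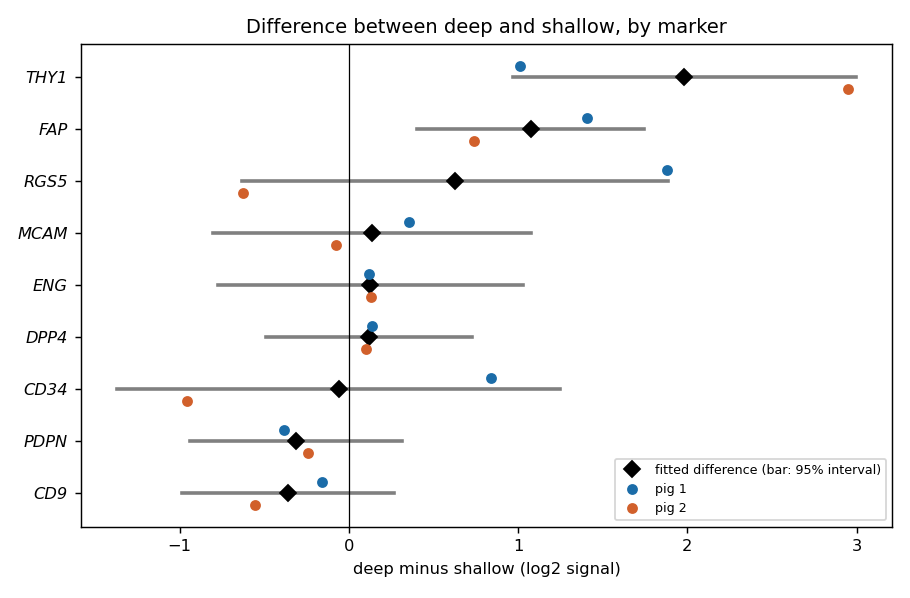
Deep minus shallow difference of log2 signal for each of the 9 genes, with the value within pig 1 (blue) and pig 2 (orange), the fitted difference (diamond) and its 95% interval (grey bar). Only the intervals of THY1 and FAP lie wholly above 0; the pigs have opposite signs for RGS5, MCAM and CD34.

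PDPN, podoplanin, is a mucin-like protein that binds ezrin and moesin, promotes contractility and marks papillary fibroblasts, lymphatic endothelium and basal keratinocytes. It read 3757 and 3241 in shallow and 2883 and 2740 in deep. Both deep cultures were below both shallow cultures, 0.768-fold in pig 1 and 0.845-fold in pig 2. The log2 difference was -0.31 ± 0.27 (limma, adjusted p = 0.673), with an interval from -0.94 to 0.31, and leaving out the shallow culture of pig 1 gave -0.21. Direct partners and linkers of PDPN, THY1, CD34 and MCAM came from a fixed list of 20, of which 13 were tested, with 0 called and a median difference of 0.06. EZR, ezrin, which ties podoplanin to actin and is abundant in epithelium, had 3058 on the shallow array of pig 1 and 1157 to 1454 on the others. The related linker MSN, moesin, read 2781 and 2680 in shallow and 2313 and 1855 in deep (-0.40 ± 0.27). SELP, P-selectin, an adhesion receptor of endothelium, read 229 on the deep array of pig 1 and 99.9 to 113 on the others, and SDC4, a syndecan that cooperates with THY1-binding integrins, differed by 0.48 ± 0.33.

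CD9 is a tetraspanin, a protein with 4 membrane spans that gathers integrins and shed growth factor precursors into membrane domains. It read 1202 and 1142 in shallow and 1075 and 776 in deep. Both deep cultures were lower, with the value of pig 2 standing apart from the other 3. The log2 difference was -0.36 ± 0.27 (limma, adjusted p = 0.616; interval -0.99 to 0.27), and leaving out the deep culture of pig 2 gave -0.12. PDPN and CD9 were the 2 of 9 genes with both deep arrays below both shallow arrays, where 25.5% of all probesets had that order. THY1 and FAP were the 2 of 9 with the reverse order, which 23.2% of all probesets had. Both shares are near the background.

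Among 13 tested tetraspanins and their partners, 0 were called and the median difference was 0.18. CD63, a tetraspanin of late endosomes and exosomes, read 4954 and 6436 in shallow and 7437 and 9944 in deep (0.61 ± 0.29). CD82, which restrains cell migration, read 104 and 61.0 in shallow and 42.6 and 36.1 in deep (-1.02 ± 0.41; limma, adjusted p = 0.321). HBEGF, a growth factor precursor that associates with CD9, read 206 on the shallow array of pig 1 and 41.7 to 56.9 on the others.

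ENG, endoglin or CD105, is a co-receptor for TGF-beta and BMP ligands, abundant on endothelium and used as a marker of mesenchymal stromal cells. Its signal was low, 46.3 and 71.0 in shallow and 50.4 and 77.8 in deep. The arrays paired by pig: the deep culture was 1.09-fold above the shallow one in pig 1 and 1.10-fold in pig 2, while pig 2 exceeded pig 1 by 1.53-fold in shallow and 1.54-fold in deep. The difference with depth was 0.13 ± 0.39 (limma, adjusted p = 0.922; interval -0.77 to 1.03). Genes of the receptor complex around endoglin were tested for 9 of 18, with 0 called and a median of -0.16. ID1, a transcriptional target of BMP receptors, read 3963 and 3773 in shallow and 1707 and 1976 in deep (-1.07 ± 0.27; limma, adjusted p = 0.145), and the signal transducer SMAD1 differed by 0.64 ± 0.27. TGFB1, a ligand, differed by -0.79 ± 0.36.

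MCAM, or CD146, is an adhesion molecule of pericytes, endothelium and perivascular stromal cells. It read 65.3 and 41.7 in shallow and 83.5 and 39.5 in deep. Here pig 1 was above pig 2 at both depths, by 1.56-fold in shallow and 2.11-fold in deep. The depth difference was 0.14 ± 0.41 (limma, adjusted p = 0.917; interval -0.80 to 1.08) with opposite signs in the pigs. The second MCAM probeset gave the same order of arrays between pigs, at 63.1 and 83.1 in pig 1 against 23.7 and 23.5 in pig 2. The lowest of these was below the wider set of absent controls on its array.

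RGS5 shortens signalling by G-protein-coupled receptors and is a marker of pericytes. It read 50.7 on the shallow array of pig 1, 336 on that of pig 2, and 187 and 218 in deep. The shallow cultures were thus the lowest and the highest of the 4, and the deep cultures lay between them. The deep culture was 3.69-fold above the shallow one in pig 1 and 0.648-fold in pig 2. The fitted difference was 0.63 ± 0.55 (limma, adjusted p = 0.673; interval -0.63 to 1.89). Leaving out the shallow array of pig 1 turned it to -0.74, and leaving out that of pig 2 raised it to 1.99 (limma, adjusted p = 0.00160, where 11.1% of all probesets were called), so its sign rested on which shallow culture was used.

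DPP4, ENG and RGS5 were the 3 of 9 genes with both arrays of pig 2 above both of pig 1, an order that 11.8% of all probesets had, and MCAM was the 1 of 9 with the reverse order, which 9.63% had. Between depths the pigs agreed in sign for 6 of the 9, positive for 4 and negative for 2, where 29.8% and 31.6% of probesets were so. The remaining 3 had opposite signs in the pigs, as did 38.6% of all probesets.

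Other regulators of the RGS family were tested for 5 of 17 listed genes, with 0 called and a median of -0.05. RGS2, which limits signalling through Gq, was lowest on the same array as RGS5, at 553 on the shallow array of pig 1 against 1671 to 2215 on the other 3. RGS4 was instead highest on that array, at 1845 against 516 to 1056 on the others. RGS14, a dim gene, read 23.3 and 13.7 in shallow and 40.7 and 54.6 in deep (1.40 ± 0.52). RGS1 read 41.6 and 31.8 in shallow and 19.5 and 29.5 in deep, below the wider set of absent controls on both deep arrays. Mural cell genes other than RGS5 and MCAM were tested for 6 of 16, with 0 called. Their median was 0.69, and 0.23 after quantile normalization. Deep values lay wholly above shallow values for 3, beside 23.7% of all named genes tested. CNN1, calponin, a contractile protein of smooth muscle and myofibroblasts, read 79.3 and 62.2 in shallow and 193 and 154 in deep (1.29 ± 0.34; limma, adjusted p = 0.155). ACTA2, smooth muscle actin, differed by 0.79 ± 0.30. Also tested were PDGFRB (0.59 ± 0.28), TAGLN (-0.05 ± 0.33) and ANGPT1 (0.01 ± 0.29). TAGLN and ANGPT1 had opposite signs in the pigs. HIGD1B, a pericyte gene, read 16.5, 23.4 and 21.9 on 3 arrays and 68.7 on the deep array of pig 2.

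CD34 is a sialomucin of interstitial dermal fibroblasts, endothelium and blood progenitors that is commonly lost when fibroblasts are grown on plastic. It read 23.4 and 42.6 in shallow and 41.9 and 21.9 in deep, above the trp controls on each array but below the 30.9 of the wider control set on the deep array of pig 2. The 2 higher values came from different depths and different pigs, and the depth groups overlapped completely. The difference was -0.06 ± 0.57 (limma, adjusted p = 0.977), with an interval from -1.37 to 1.25 that covers a change of more than 2-fold in either direction.

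Because CD34, ENG and MCAM are shared with endothelium, endothelial genes were read alongside. Of 11 on the array, CDH5, KDR, TEK, TIE1 and SELE were below the wider set of absent controls on all 4 arrays, and between 4 and 6 of the 11 exceeded it on any one array. The summed signal of the 11 was 937 and 419 in shallow and 490 and 658 in deep, with PECAM1 at 601 on the shallow array of pig 1. Of 5 tested, 0 were called. CLDN5 read 114 and 56.6 in shallow and 33.6 and 16.2 in deep, the last below the trp controls of its array (17.1), so it is given no exact difference. EGFL7 differed by 0.66 ± 0.42 and FLT1 by -0.57 ± 0.40. Leukocyte genes summed to 143 and 189 in shallow and 199 and 330 in deep over 11 genes, and the common leukocyte antigen PTPRC exceeded the controls on 1 array. Of the 2 leukocyte genes tested, the actin-bundling LCP1 differed by 1.49 ± 0.40 and CD14 by 0.33 ± 0.42. Fat cell markers were near the controls: of 8 on the array only LEP was tested (0.30 ± 0.44). Of 3 glial or pigment cell genes tested 0 were called, with differences of -0.63 ± 0.41 for MBP, which was below the wider set of controls on 1 array, 0.61 ± 0.60 for MITF and 0.04 ± 0.45 for S100B.

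**Figure D3:**
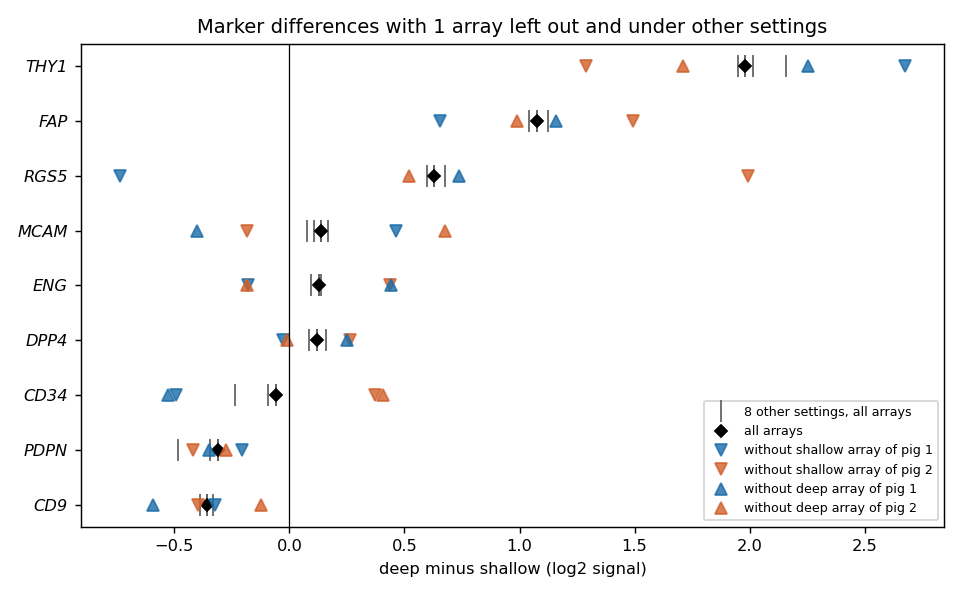
Deep minus shallow log2 difference of each of the 9 genes with all arrays (diamond), with 1 array left out (triangles, down for a shallow and up for a deep array, blue for pig 1 and orange for pig 2) and under 8 other settings with all arrays (grey ticks). THY1 and FAP stay above 0 throughout, PDPN and CD9 stay below 0, and RGS5 runs from -0.74 to 1.99. For THY1, FAP, PDPN and CD9 leaving out 1 array cannot turn the sign, since their deep and shallow values do not overlap.

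Whether other layer markers moved as THY1 and FAP did was read from lists of genes tied to each layer. Of 20 papillary genes 8 were on the array and 6 were tested, and 0 passed in either direction. Their median difference was 0.72, and 4 of the 6 had deep values wholly above the shallow ones, as did 23.7% of all named genes tested. PTGDS, a prostaglandin D synthase, read 43.0 and 74.8 in shallow and 140 and 131 in deep (1.26 ± 0.39; limma, adjusted p = 0.215). LRIG1, a receptor that restrains growth factor signalling in upper dermal fibroblasts, read 64.5 and 99.4 in shallow and 102 and 183 in deep (0.77 ± 0.34). The other 2 were LEF1, a Wnt effector, at 375 and 535 in shallow and 479 and 576 in deep, and COL7A1, the anchoring fibril collagen made by keratinocytes and upper dermal cells, at 359 and 226 in shallow and 238 and 176 in deep.

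Of 20 reticular and hypodermal genes 10 were on the array and 4 were tested, with 0 called and a median of 0.74. DPT, dermatopontin, a matrix protein that organizes collagen fibrils, read 110 and 49.3 in shallow and 311 and 363 in deep (2.19 ± 0.40; limma, adjusted p = 0.0771). FBN1, the microfibril protein fibrillin, read 2581 and 5616 in shallow and 8158 and 9956 in deep (1.24 ± 0.32; limma, adjusted p = 0.148). MFAP5, another microfibril protein, read 122 and 141 in shallow and 94.6 and 91.6 in deep. The medians of the papillary and the reticular list were thus close to each other, as THY1 and FAP, used for opposite layers, both had positive differences. MGP, PPP1R14A, PPARG, COL11A1, SLPI and FABP4 were not tested because their probesets were dim on average. The median therefore leaves them out. SLPI and FABP4 read lower in the deep culture of both pigs. Both were above the wider set of absent controls on every array except the deep array of pig 2. MGP, PPP1R14A and COL11A1 read higher in the deep culture of both pigs, and PPARG had opposite signs.

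Of 28 other mesenchymal surface genes 15 were tested and 0 called, with a median of 0.44. Differences were positive for 13, as for 46.4% of all named genes tested. VCAM1, a leukocyte adhesion molecule, read 853 and 1631 in shallow and 2113 and 3684 in deep (1.24 ± 0.26; limma, adjusted p = 0.0973). SDC2, a heparan sulfate proteoglycan, differed by 1.03 ± 0.33. PROCR, the protein C receptor, had 1709 on the shallow array of pig 1 and 6136 to 7280 on the other 3, the same order of arrays as for RGS5. CD46, a complement regulator, went the other way, at 2168 and 2550 in shallow and 1453 and 1397 in deep.

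NT5E acts at a step between ENTPD1, which strips phosphate from ATP, and the adenosine receptors, and these could be read although NT5E could not. ENTPD1, or CD39, which is also a papillary marker, read 23.3 and 32.7 in shallow and 48.8 and 88.5 in deep (1.25 ± 0.43; limma, adjusted p = 0.252). ADORA1, an inhibitory adenosine receptor, read 23.8 and 24.4 in shallow and 114 and 116 in deep (2.26 ± 0.40; limma, adjusted p = 0.0741), with nearly equal replicates at each depth. SLC29A1, a nucleoside carrier that removes adenosine, read 71.8 and 41.3 in shallow and 31.6 and 22.5 in deep, the last below the wider set of absent controls (-1.03 ± 0.44). Of the 6 genes tested in this list, DPP4 included, 0 passed the threshold and the median was 0.01.

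General fibroblast genes were read for comparison. All 10 were higher on both deep arrays than on both shallow arrays, an order that 23.7% of all named genes tested had. Their median difference was 0.93, and 0.35 after quantile normalization, when 9 of the 10 remained positive. None of the 10 was called. The largest differences were 1.54 ± 0.27 for COL6A3, 1.01 ± 0.46 for COL3A1 and 0.99 ± 0.27 for COL1A2. The COL3A1 probeset was dim and near the absent controls, at 26.7 and 19.4 in shallow and 47.7 and 44.4 in deep. After the same normalization THY1 differed by 2.01 and FAP by 1.12. Of the 11 proliferation genes tested, all were lower on both deep arrays than on both shallow arrays, as were 28.4% of all named genes tested. Their median was -2.15, and 1 was called, CENPF, a kinetochore protein (limma, adjusted p = 0.0453). CENPF read 511 and 310 in shallow and 83.6 and 9.45 in deep, the last below the absent controls of its array. It is therefore given no exact difference, and its call rests in part on that value. RRM2, a subunit of the enzyme that supplies deoxynucleotides, differed by -2.75 ± 0.50 and CCNB1, a mitotic cyclin, by -2.41 ± 0.47. The epithelial list of 7 tested genes had a median of -1.32, with 0 called, and a median of 0.07 when the shallow culture of pig 1 was left out. CDH1 read 1084 on that array and 7.15 to 17.7 on the others, EPCAM 979 and 4.79 to 27.3, and SFN 1486 and 6.81 to 37.0. The part of these signals in the values of PDPN, CD9 and RGS5 was not tested.

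**Figure D4:**
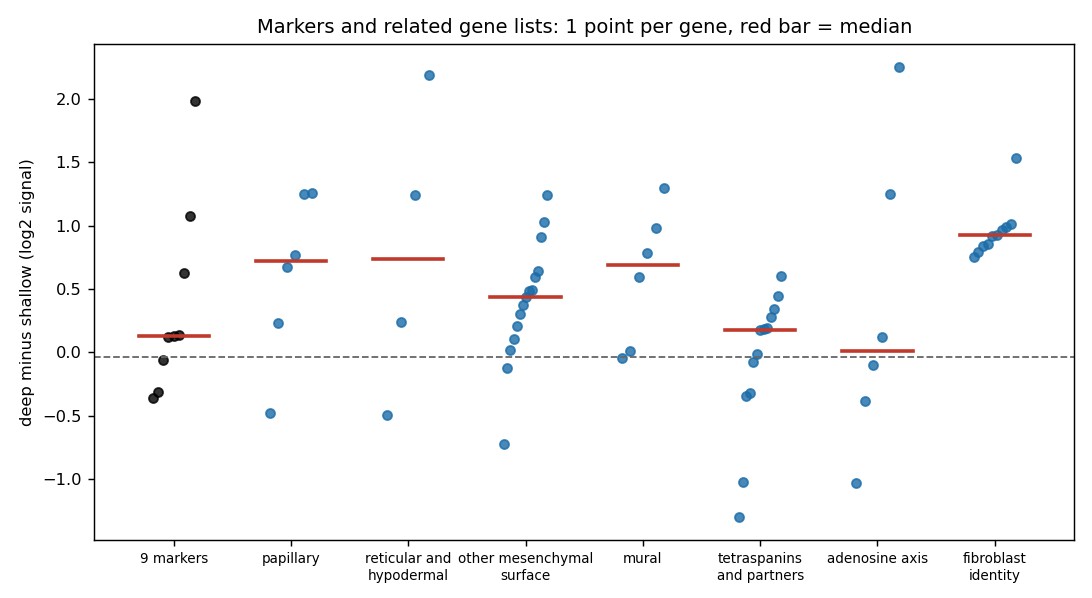
Deep minus shallow log2 difference of the 9 genes (black) and of the tested genes of 7 related lists (blue), 1 point per gene, with the median of each as a red bar and the median of all 5272 named genes tested, -0.04, as a dashed line. The papillary and reticular lists have medians of 0.72 and 0.74, and the 9 genes a median of 0.13. Some genes are plotted more than once: DPP4 is also a point of the adenosine list. ENTPD1 is in the papillary and adenosine lists, and PDGFRB in the mesenchymal surface and mural lists.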

How the data were processed

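The deposited table holds 1 signal intensity per probeset for each of the 4 arrays, for which the submitters' processing notes name MAS5 and GCOS 1.0 as the authors' software. After trimming 2% at either end, the mean signal was 250.1 on every array, so arrays had been scaled to a common level; the scaling target and scan settings are not given in the sources used here. Precision is limited by the number of arrays.

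Tests excluded 124 control probesets, which left 23999. Of these 10069 had 1 symbol, 198 several and 13732 none. Signals under 1 were set to 1 (2547 of 95996 values) and taken to log2. Probesets at or above the 40th percentile of mean log2 signal, 27.1 in signal, were kept, which left 14399. Deep and shallow were compared with limma 3.58.1 in R 4.3.3 (lmFit, eBayes with a trend), with the pig as a block because the series calls the wounds paired. The block leaves 1 residual degree of freedom, to which moderation added 6.88. As a check of the pairing, the residuals of a pig's 2 arrays about the mean of each depth correlated at -0.01 across probesets. The fit was also run on simulated data with independent noise and no difference between pigs or outlying array. That run cannot show how such differences act on the calls made here.

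The genes, the 17 gene lists and the tests were chosen with earlier results of these data known. Named genes were all members, every list gene past the threshold, and, per list, up to 3 genes that differed most among those whose mean signal exceeded the absent controls. A few further genes (MSN, COL7A1, LEF1, CD46, SLPI, FABP4, PDGFRB, TAGLN, ANGPT1, RGS4, markers at the controls) were named after their values were seen. Lists are described by counts and medians without a set test. The wider set of 23 absent controls adds 17 tag probesets and was chosen after seeing the data. Gene identifiers of the 9 genes were found in the RefSeq gene table of Sscrofa11.1, from which only names and gene order were used. Sequences were not used here.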

Additional observations from a re-analysis of the deposited data

How the results depend on the processing

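The count of the 9 genes past the threshold, 0 with all arrays and the pig block, was also 0 with no replicate block, with no filter on dim probesets, with the filter on absent controls, with a floor of 16, with median centring, with quantile normalization and with the mean of all probesets of a gene. It was 1, THY1, with the crossed pairing. With 1 array left out it ran from 0 to 3: 1 (THY1) without the shallow array of pig 1, 3 (THY1, FAP and RGS5) without that of pig 2, and 0 without either deep array. These fits leave 1 array at a depth, which is assumed to vary like the other group. The cause was not tested. Over all probesets the calls were 49 with all arrays and the pig block, 0 with no replicate block or no filter, 6 with the floor of 16, 20 with probesets averaged, 24 with the filter on absent controls, 93 after quantile normalization and 202 with the crossed pairing. Dropping the shallow culture of pig 1 gave 172 and dropping that of pig 2 gave 1597, while dropping either deep culture gave 0 in limma (1803 and 727 at an unadjusted p under 0.05). In the 8 settings with all arrays each gene kept the sign of its difference. THY1 lay between 1.95 and 2.16 (limma, adjusted p from 0.0159 to 0.342), FAP between 1.04 and 1.12 (0.119 to 0.367), and PDPN between -0.48 and -0.31. Most of these settings could not turn a sign. The block, the pairing and the filters do not enter the difference, and the floor of 16 lay under all values of the 9 genes. Only median centring, quantile normalization and, for THY1 and MCAM, averaging probesets could move it. With 1 array left out, signs turned for DPP4 (-0.028 to 0.27), CD34 (-0.53 to 0.41), ENG (-0.19 to 0.44), MCAM (-0.40 to 0.68) and RGS5 (-0.74 to 1.99). They did not for THY1 (1.29 to 2.68), FAP (0.66 to 1.49), CD9 (-0.59 to -0.12) or PDPN (-0.42 to -0.21). For these genes leaving out 1 array could not turn the sign, because both deep values lay on one side of both shallow values. The number of genes above the absent controls on all arrays was 9 by the trp probesets, 9 by their median and 8 by the wider set. Signals of ENG, MCAM and CD34 near the controls limit what their values can show.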

Other observations

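FAP and DPP4 lie next to each other in the pig genome with only 1 coding gene between them, GCG, which encodes glucagon. GCG was dim, at 1.83 and 4.20 in shallow and 3.13 and 30.8 in deep, below the wider set of absent controls on every array. FAP differed with depth by 1.07 on the log2 scale and its neighbour DPP4 by 0.12. MCAM and THY1 are likewise near neighbours with 4 coding genes between them. Of these, C1QTNF5, a secreted protein of the complement C1q and TNF family, read 305 and 722 in shallow and 1161 and 1034 in deep (1.22; limma, adjusted p = 0.198), and USP2 was too dim to be tested. MCAM itself differed by 0.14 and THY1 by 1.98. These genes were picked after their values were seen.

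For the 3 markers with the widest range over the arrays, the named genes with the nearest profile of log2 signal over the 4 arrays, each centred on its mean, were found among 5256 others. A profile of 4 points has many near matches, and distances are given as a description. THY1 was nearest to DPT, dermatopontin (Euclidean distance 0.35), and to EMB, embigin (0.41), with 25 genes within a distance of 1. DPT read 110 and 49.3 in shallow and 311 and 363 in deep, so pig 2 was the lower animal in shallow and the higher in deep, as for THY1. RGS5 was nearest to RASL11B, a small GTPase-like protein (0.39), at 85.0 and 416 in shallow and 220 and 304 in deep, and to PROCR (0.53), with 17 genes within 1. FAP was nearest to GEM (0.06) and PHLDA3 (0.07), but 1343 genes lay within 1 of it.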
